A study of Ovis aries with 15 samples.

Results

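The genes described here serve protein folding and protein disposal in the endoplasmic reticulum (ER) of the sheep mammary gland. They were chosen by name as 41 symbols for chaperones, disulfide isomerases, ER-associated degradation factors and sensors of unfolded protein, and 37 of them stand under their symbol among the 24691 features of the deposited table. The other 4 (PDIA4, DERL1, DERL3 and XBP1) were found only under a LOC identifier whose number is the gene's NCBI gene ID, on the same chromosome. Counts of genes are given for the 37 as the main result and for all 41 beside it.

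RNA came from needle biopsies of mammary parenchyma of Romney ewes, taken in late pregnancy at day 135 ± 2.4 (SD) of gestation and in lactation at day 15 ± 1.27 (SD) post partum. By the study's methods ewes were sampled in late pregnancy and again in lactation. Which pools share ewes is not known, and the main comparison of the states did not pair them. Each library was made from the pooled RNA of several ewes, 3 per late pregnancy pool and, by the submitters' design text, 2 per lactation pool, where the study's methods give the same number for all pools. The 15 libraries were 9 of late pregnancy and 6 of lactation. The ewes had all been kept alike and fed at the same level, and differed in what their own dams were fed in early gestation (sub-maintenance, maintenance or ad libitum pasture). All these dams had a maintenance allowance in mid-to-late gestation, and each dam feed has 3 late pregnancy pools and 2 lactation pools.

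Secreted and membrane proteins enter the ER unfolded, and milk proteins are secreted in bulk by the mammary epithelium. HSP70 and HSP90 type chaperones hold the new chains, lectin chaperones keep glycoproteins in a folding cycle, and isomerases and oxidases form disulfide bonds. Chains that fail to fold are trimmed, recognised, moved back through the membrane and given ubiquitin for destruction by the proteasome. When unfolded protein builds up, the sensors ERN1, ATF6 and EIF2AK3 start the unfolded protein response, in which spliced XBP1 mRNA encodes a transcription factor for many of the genes above.

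Depth ranged from 7597938 to 19823166 reads on genes in late pregnancy and from 10352962 to 25679416 in lactation. The 7 major milk protein genes took 13.7% to 23.4% of the counts in late pregnancy, but 71.3% to 75.8% in lactation, so the scaling of libraries bears on every level below. A level is given as scaled RPKM, which is RPKM (reads on the exons of a gene relative to their length and to the library size) with the library size scaled by TMM, a method that centres the change of most genes near 0. On this scale the median log2 change of the 13345 genes tested was -0.03. With library size as the only scaling it was -1.94, the median of the 37 genes was -1.05, and the log2 change of each of them but ERO1L was negative, so directions below are relative to the genes at large. Of the 37 genes 35 lay above the median of all genes tested, a count that another factor per library leaves nearly fixed by construction, and 34 did on the authors' quantile-normalized RPKM. The ad libitum lactation pool 1 had the lowest milk protein share of its state, and without it 33 genes were called higher and 2 lower, as with it.

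The markers of mammary epithelium had the largest sum of the lists in every library, and those of several other cell types fell in lactation. Of all genes tested 33.1% were called higher and 35.2% lower. The summed level of 12 luminal and secretory epithelium markers was 1266 to 1565 scaled RPKM in late pregnancy and 1927 to 2105 in lactation (6 higher, 3 lower). Most of it was ELF5 (406 to 464, then 698 to 799.9) and KRT19 (318 to 565, then 601 to 803). Some were low, such as KRT18 (5.74 to 15.6, then 10.0 to 16.8). The 3 lower were KRT7, GATA3 and CLDN4, with log2 changes of -1.12, -0.59 and -0.44. The summed level of 8 myoepithelial markers was 370.0 to 423 and 367 to 552 (4 higher, 2 lower). All 7 T cell markers tested were lower (30.6 to 48.9 against 9.82 to 15.2 for 8 markers), as were 5 of 8 fibroblast markers (328 to 516 against 191 to 299.9). Lower too were 6 of 7 endothelial (54.1 to 75.8 against 35.2 to 49.2) and 5 of 8 macrophage markers, with 1 macrophage marker higher (129.5 to 167 against 70.3 to 98.8). None of 4 adipocyte markers tested was called (529.9 to 1060 against 724 to 966 for 7 markers, nearly all of it FABP4). Of the 7 B and plasma cell markers tested 3 were higher and 2 lower (24.2 to 55.1 against 49.3 to 110.1 for 11 markers). The sums of the epithelial, T cell, fibroblast, endothelial and macrophage lists did not overlap between the states, those of the myoepithelial, adipocyte and B and plasma cell lists did, and their part in the results was not tested. Fewer cells of a type and less RNA per cell cannot be told apart in these bulk biopsies.

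Most of the folding and degradation genes had a higher level in lactation. Of the 37 genes, 33 were called higher and 2 lower by edgeR's quasi-likelihood test at a Benjamini-Hochberg adjusted p under 0.05, where 33.1% of all genes tested were called higher and 35.2% lower. The median log2 change of the 37 was 0.86. Over all 41, 40 passed the filter on low counts, 36 were higher and 2 lower, and the median was 0.88. Of the 37, 11 were called with a rise of more than 2-fold (13 of the 41), against 9.13% of all genes tested. That count was 6 without milk protein genes in the library size, 5 with limma on quantile-normalized RPKM and 0 with library size only. In 31 of the 37 no lactation library fell within the late pregnancy range or the reverse, against 40.2% of all genes tested. The spread was wide, from -1.05 for DNAJC10 to 2.51 for ERO1L.

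**Figure D1:**
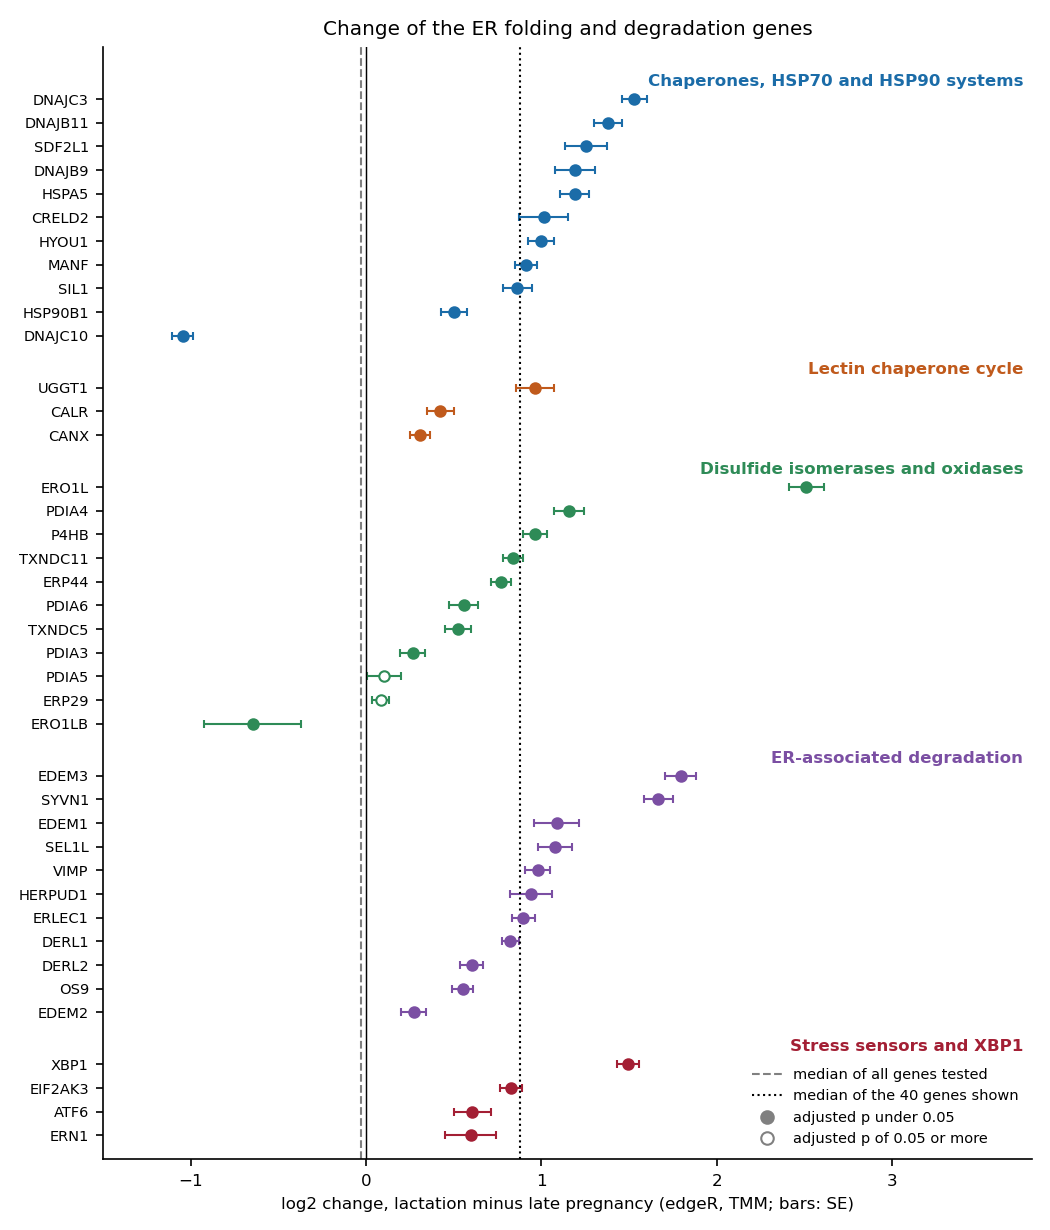
The log2 change from late pregnancy to lactation (TMM scaling, edgeR) of the 40 genes tested is plotted by role, with 1 SE as bars, filled points where the adjusted p was under 0.05, and dashed and dotted lines for the medians of all genes and of the genes shown. ERO1L, EDEM3 and SYVN1 stand furthest to the right, and DNAJC10 and ERO1LB lie on the negative side. Scaled by library size alone, each gene shown but ERO1L had a negative change.

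Together the 41 genes held 1792 to 2218 scaled RPKM in late pregnancy and 3056 to 3704 in lactation, with no overlap. As a share of all counts they moved the other way, from 0.679% ± 0.0554 (SD, n = 9) to 0.310% ± 0.00939 (n = 6). Of the counts that fell outside the 7 milk protein genes, they held 0.825% ± 0.0638 in late pregnancy and 1.22% ± 0.0962 in lactation. Per 100 reads on the milk protein genes there were 3.97 ± 0.826 reads on the 41 genes in late pregnancy and 0.417 ± 0.0141 in lactation. The direction of the sum therefore differs with the denominator, higher outside the milk genes and lower over all counts.

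**Figure D2:**
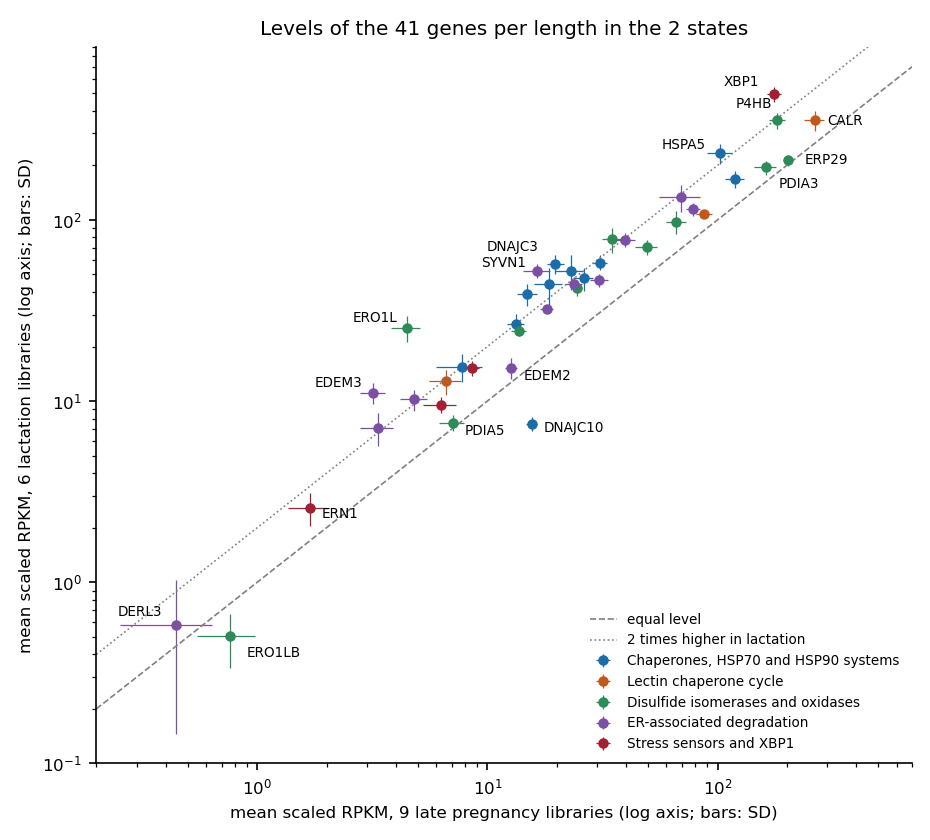
Mean scaled RPKM of the 41 genes in late pregnancy (horizontal, n = 9) is set against lactation (vertical, n = 6) on log axes, with SD bars and lines for equal and for 2 times higher levels. Most points lie between the lines or above the upper one, XBP1 has the highest lactation level at 495, and DERL3 and ERO1LB are below 1 in both states. With library size as the only scaling, the 40 genes tested other than ERO1L had negative log2 changes.

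The HSP70 chaperone of the ER and most of its partners rose. Of 11 genes of the HSP70 and HSP90 systems, 10 were higher and 1 lower, against 33.1% and 35.2% of all genes tested. The median log2 change of the 11 was 1.01. HSPA5 (BiP), the central HSP70 of the ER, lies at chr3:10721545-10726004 in the coordinates of the table. Its levels were 87.1, 101.5 and 129.3 scaled RPKM (lowest, median, highest) in late pregnancy against 193, 235 and 271 in lactation. The highest late pregnancy pool thus stayed well under the lowest lactation pool, and the log2 change was 1.19 ± 0.0838 (SE, adjusted p = 1.4e-10). HSP90B1 (GRP94), the HSP90 of the ER, had a higher level than HSPA5 in late pregnancy and a lower one in lactation. It went from 103, 119 and 134 to 144, 172 and 193, a log2 change of 0.50 ± 0.0737 (adjusted p = 5.5e-06). Its states did not overlap, but its rise was smaller than that of any other gene of the group that rose.

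The nucleotide exchange factors that reset HSPA5 both rose by close to 2-fold. HYOU1 went from 13.3 ± 1.15 to 26.6 ± 3.43 scaled RPKM (SD) and SIL1 from 26.3 ± 2.64 to 47.5 ± 6.91, log2 changes of 1.00 ± 0.0724 and 0.86 ± 0.0820 (SE). Within each library the ratio of HYOU1 to HSPA5 was 0.120 to 0.140 in late pregnancy and 0.107 to 0.125 in lactation. These ranges overlap.

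The J-domain proteins, which bring substrates to HSPA5 and start its ATP cycle, went in opposite directions. DNAJC3, which also binds and holds back EIF2AK3, had 16.6, 20.1 and 21.6 scaled RPKM in late pregnancy against 46.8, 56.4 and 66.8 in lactation. Its log2 change of 1.53 ± 0.0728 (adjusted p = 3.6e-13) was the largest of the group. DNAJB11, which binds nascent chains, rose by 1.38 ± 0.0792 (from 14.9 ± 1.42 to 38.9 ± 5.34), and DNAJB9, which serves degradation and restrains ERN1, by 1.19 ± 0.114 (from 23.0 ± 3.34 to 52.3 ± 11.3). DNAJC10 at chr2:125867637-125914356, a J-domain protein with thioredoxin domains that reduces disulfides of chains bound for degradation, fell. Its levels were 14.2, 15.9 and 16.5 in late pregnancy against 6.35, 7.65 and 8.08 in lactation. Every lactation library was below every late pregnancy library, and the log2 change was -1.05 ± 0.0590 (adjusted p = 4.8e-12). The fall held within each dam feed, at -1.03 (maintenance), -1.08 (sub-maintenance) and -1.01 (ad libitum).

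The small partners of the HSP70 system also rose. SDF2L1, which forms a complex with DNAJB11, went from 18.6 ± 2.60 to 44.1 ± 10.4 scaled RPKM (log2 change 1.26 ± 0.119), and its lactation libraries spread from 30.3 to 58.5. MANF, a secreted stress-induced factor that binds HSPA5, went from 30.9 ± 2.27 to 58.1 ± 5.49 (0.91 ± 0.0638). CRELD2, an ER protein with EGF-like repeats, went from 7.73 ± 1.78 to 15.5 ± 2.71 (1.01 ± 0.139). In each of the 3, the lowest lactation library lay above the highest late pregnancy library. The states did not overlap in 40.2% of all genes tested.

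**Figure D3:**
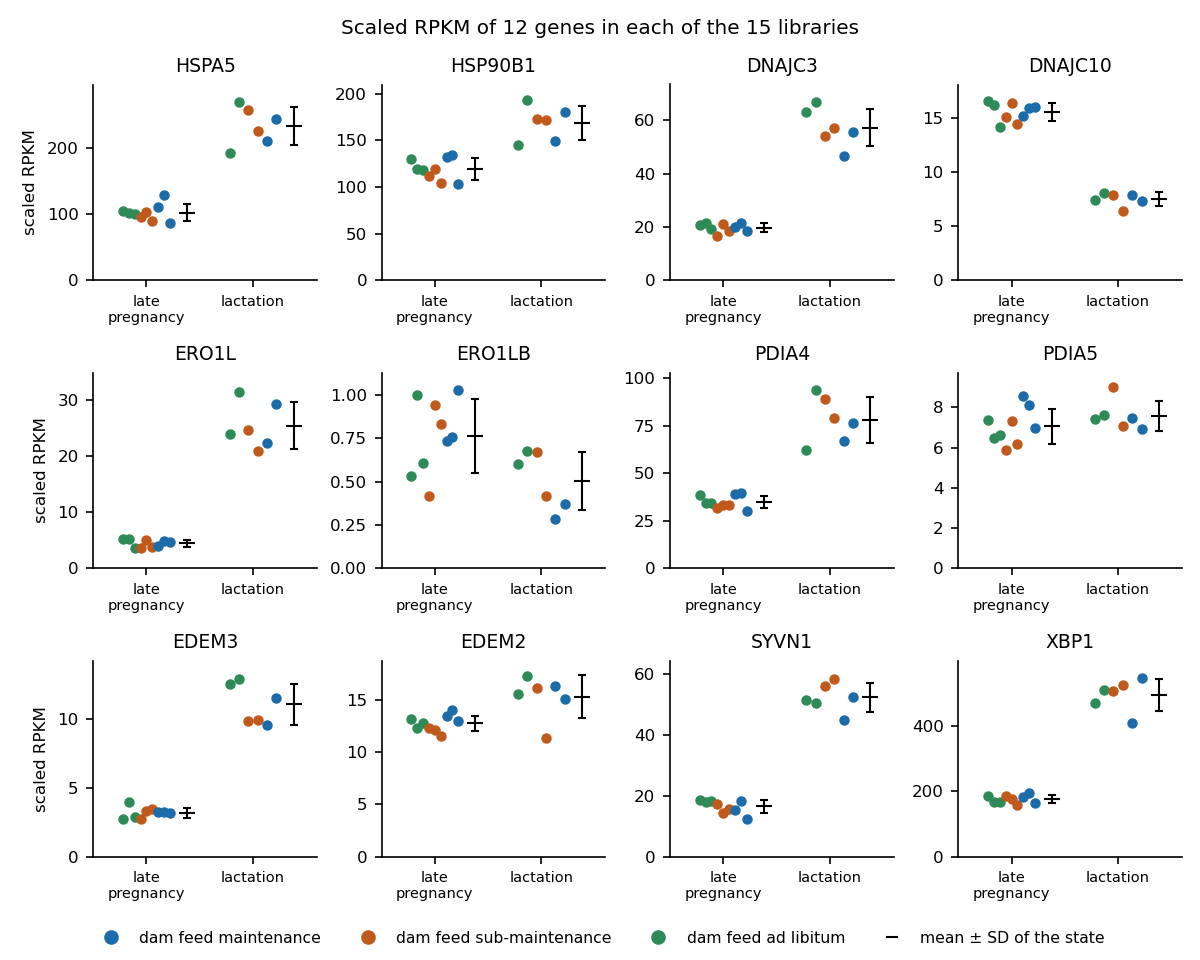
Scaled RPKM of 12 genes in each of the 15 libraries is plotted by state and coloured by the feed of the ewes' dams, with mean and SD in black, on axes that start at 0. HSPA5, HSP90B1, DNAJC3, ERO1L, PDIA4, EDEM3, SYVN1 and XBP1 show 2 separate clouds with lactation above, DNAJC10 shows lactation below, and the clouds of ERO1LB, PDIA5 and EDEM2 overlap. By library size alone ERO1L was the only gene of the 12 with a higher lactation level.

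The lectin chaperone cycle had the lowest median log2 change of the roles (0.42), with all 3 genes called higher, against 33.1% of all genes tested. CALR (calreticulin) and CANX (calnexin) bind glycoproteins with a single terminal glucose, and UGGT1 puts that glucose back on chains that have not folded. CALR had the highest level of all 41 genes in late pregnancy, 234 to 302 scaled RPKM with a median of 257, and 303 to 407 in lactation with a median of 361. Its lowest lactation library lay just above its highest late pregnancy library. Its log2 change of 0.42 ± 0.0778 had an adjusted p of 7.9e-05. CANX, the membrane-bound lectin, went from 87.6 ± 6.62 to 108.3 ± 5.04, a log2 change of 0.31 ± 0.0560 (adjusted p = 7.1e-05). Both calls depended on the scale: on the authors' quantile-normalized RPKM the log2 changes were 0.0055 (CALR) and 0.01 (CANX), with adjusted p of 0.96 and 0.83 by limma. CANX was also not called without milk protein genes in the library size (adjusted p = 0.16). UGGT1, the folding sensor, went from 6.60 ± 1.04 to 12.9 ± 2.03, a log2 change of 0.96 ± 0.107. Per length, UGGT1 was at a far lower level than either lectin in both states.

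The disulfide isomerases and oxidases were the most varied role. Of 11 genes, 8 were higher, 1 lower and 2 not called, where 33.1% of all genes tested were higher and 35.2% lower. The median log2 change of the 11 was 0.56. ERO1L (ERO1A) at chr7:11269380-11320811, the oxidase that passes disulfides to the isomerases and makes hydrogen peroxide as it does so, had the largest change of the 41 genes. Its levels were 3.68, 4.65 and 5.20 scaled RPKM in late pregnancy against 20.9, 24.2 and 31.4 in lactation. Every lactation pool lay above all late pregnancy pools, and the means differed 5.69-fold (log2 change 2.51 ± 0.100, adjusted p = 2.6e-14). Within the dam feeds the log2 change was 2.52, 2.45 and 2.57, and it was the single gene of the 37 called higher (0.60) when libraries were scaled by size alone.

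ERO1LB (ERO1B), the second ER oxidase, known for its high level in pancreas, did not follow ERO1L. It had 0.416, 0.759 and 1.03 scaled RPKM in late pregnancy against 0.286, 0.509 and 0.674 in lactation, from 4 to 51 reads per library. The states overlapped, and the log2 change of -0.65 ± 0.276 had an adjusted p of 0.044. The call was lost when any of 9 libraries was left out: the late pregnancy pools ad libitum 2, sub-maintenance 2 and 3, and maintenance 1, 2 and 3, and the lactation pools sub-maintenance 2 and maintenance 1 and 2. Without these the log2 change was -0.65 to -0.48 with adjusted p from 0.052 to 0.15. It was also lost with DESeq2 (adjusted p = 0.059), and the change within ad libitum libraries was -0.09. The level of ERO1L was 4.53 to 9.71 times that of ERO1LB in late pregnancy libraries and 36.7 to 79.0 times in lactation libraries.

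P4HB (PDI), the most abundant isomerase here and also a subunit of collagen prolyl hydroxylase, went from 164, 177 and 200.5 scaled RPKM to 308, 345 and 416. Its states were well apart, with a log2 change of 0.96 ± 0.0670 (adjusted p = 1.2e-10). PDIA4 (ERp72), found under a LOC identifier, went from 30.1, 34.3 and 39.7 to 62.4, 77.8 and 93.9, a log2 change of 1.16 ± 0.0837 (adjusted p = 2.2e-10). PDIA6 rose by 0.56 ± 0.0828 (from 66.3 ± 6.56 to 97.5 ± 13.9) and TXNDC5 by 0.52 ± 0.0757 (from 49.2 ± 5.46 to 70.6 ± 6.88). ERP44, which holds back ERO1 oxidases and unassembled chains at the Golgi, rose by 0.77 ± 0.0555 (from 24.6 ± 1.24 to 41.9 ± 3.73). TXNDC11 rose by 0.84 ± 0.0583 (from 13.7 ± 1.04 to 24.4 ± 1.61). None of these 6 overlapped between the states. Of all 11 genes of the role 7 did not overlap, against 40.2% of all genes tested.

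The other 3 isomerase-like genes moved little. PDIA3 (ERp57), the partner of CALR and CANX on glycoproteins, had 144, 158 and 192 scaled RPKM in late pregnancy against 168, 197 and 211 in lactation. These ranges overlapped, and the log2 change of 0.26 ± 0.0724 (adjusted p = 0.0031) turned to -0.02 on quantile-normalized RPKM. PDIA3 was also not called by edgeR with upper quartile scaling (0.11, adjusted p = 0.16) or without milk protein genes in the library size (0.05, adjusted p = 0.55). ERP29, a chaperone with a thioredoxin fold and no active site for disulfide exchange, was among the most abundant of the 41 genes, at 191, 203 and 217 and then 200.1, 208 and 240.0. Its log2 change of 0.08 ± 0.0502 was not called (adjusted p = 0.15), and its sign changed under several scalings, to -0.07 with upper quartile scaling, -0.13 without milk protein genes in the library size and -0.25 on quantile-normalized RPKM. It was called lower under the last pair (adjusted p = 0.031 with edgeR and 1.7e-05 with limma). PDIA5 at chr1:185701967-185793885 had 5.89, 6.98 and 8.54 in late pregnancy against 6.91, 7.44 and 9.01 in lactation. Its log2 change of 0.10 ± 0.0951 was not called (adjusted p = 0.35), and it was -0.05 with upper quartile scaling and -0.11 with milk protein genes left out.

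Within a library, the ratio of 2 of these genes does not change with a single scaling factor per library, though quantile normalization can change it. The pairs below were chosen after their values were seen, so they are a description with no test. The ratio of HSPA5 to HSP90B1 was 0.812 to 0.962 in late pregnancy and 1.32 to 1.49 in lactation, so the HSP70 passed the HSP90 in every lactation library. HSPA5 to CALR went from 0.359 to 0.428 to a range of 0.605 to 0.704. P4HB to PDIA3 was 1.00 to 1.24 and then 1.65 to 2.04, and PDIA4 to PDIA3 was 0.201 to 0.233 and then 0.334 to 0.448. The ratio of ERO1L to P4HB, oxidase to isomerase, had a mean of 0.0246 ± 0.00386 (SD) in late pregnancy and 0.0719 ± 0.0121 in lactation. DNAJC3 to DNAJC10 had a mean of 1.27 ± 0.0878 and then 7.69 ± 1.15. None of these 6 ratios overlapped between the states. By contrast CALR to CANX, the soluble to the membrane-bound lectin, overlapped at 2.73 to 3.29 and 2.94 to 3.78.

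**Figure D4:**
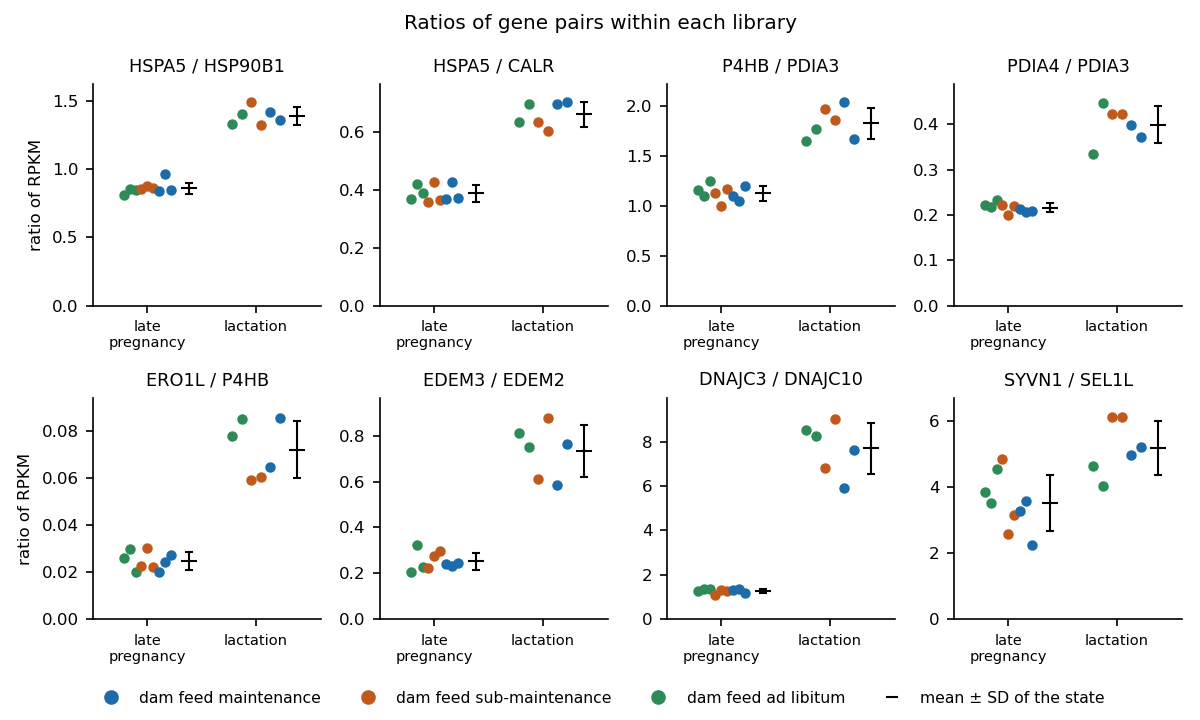
The ratio of scaled RPKM of 8 pairs of genes is plotted for each of the 15 libraries, coloured by dam feed, with mean and SD in black and axes from 0. Lactation lies above late pregnancy without overlap in the first 7 pairs, and the clouds of SYVN1 to SEL1L overlap (2.23 to 4.87 against 4.03 to 6.13).

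All tested genes of ER-associated degradation were higher. Of 12 genes 11 were tested and 11 called, with a median log2 change of 0.94 and 4 above 2-fold. Of all genes tested 33.1% were called higher, and 9.13% by more than 2-fold. SYVN1 (HRD1), the ubiquitin ligase in the ER membrane, lies at chr21:42649447-42656387. It had 12.3, 17.3 and 18.6 scaled RPKM in late pregnancy against 44.7, 51.9 and 58.3 in lactation. The lowest lactation pool was far above the highest late pregnancy pool, and the log2 change was 1.67 ± 0.0829 (adjusted p = 7.1e-13). SEL1L, which anchors and stabilises SYVN1, had 3.56, 4.998 and 5.52 and then 8.96, 9.76 and 12.5, a log2 change of 1.08 ± 0.0969. HERPUD1, which joins this ligase complex, went from 69.7 ± 13.9 to 133.6 ± 22.9, a log2 change of 0.94 ± 0.119. In late pregnancy HERPUD1 spread widely, from 54.3 to 97.4, with the ad libitum pool 2 highest.

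The EDEM proteins trim mannose from glycoproteins that fail to fold, and the 3 members differed. EDEM3 at chr12:63829906-63895435 had 2.71, 3.22 and 3.97 scaled RPKM in late pregnancy against 9.59, 10.7 and 12.9 in lactation. Its log2 change of 1.80 ± 0.0881 (adjusted p = 5.7e-13) was the second largest of the 41 genes. EDEM1 went from 2.60, 3.55 and 4.14 to 5.17, 6.85 and 9.18, a log2 change of 1.09 ± 0.130. EDEM2 overlapped, at 11.5, 12.8 and 14.0 and then 11.3, 15.8 and 17.2, with a log2 change of 0.27 ± 0.0727 (adjusted p = 0.0027). EDEM2 was not called with upper quartile scaling (0.12, adjusted p = 0.15) or without milk protein genes in the library size (0.06, adjusted p = 0.48). In late pregnancy EDEM3 had 0.206 to 0.322 of the level of EDEM2, and in lactation 0.588 to 0.877.

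The lectins that recognise trimmed chains rose together. OS9 went from 78.4 ± 5.76 to 114.8 ± 9.14 scaled RPKM (log2 change 0.55 ± 0.0600) and ERLEC1 from 23.8 ± 2.02 to 44.3 ± 4.08 (0.90 ± 0.0657). Of the exon reads of ERLEC1 54.0% were uniquely placed, so its level is uncertain. At the exit from the ER, DERL1 went from 18.1 ± 1.22 to 32.0 ± 1.28 (0.82 ± 0.0506) and DERL2 from 30.6 ± 2.73 to 46.5 ± 3.74 (0.60 ± 0.0657). VIMP (selenoprotein S), which links the derlins to the ATPase that pulls chains out, went from 39.5 ± 4.37 to 77.7 ± 6.89 (0.98 ± 0.0723). The states of these 5 genes did not overlap. Of the 11 degradation genes tested 10 did not overlap, against 40.2% of all genes tested. DERL3, the third derlin, known from plasma cells and other secretory cells, was near the floor, with 0 to 18 reads in a library. It did not pass the filter and was not tested, with 0.241 to 0.807 scaled RPKM in late pregnancy and 0 to 1.11 in lactation.

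All 4 genes of the sensor group were higher, against 33.1% of all genes tested, and XBP1 rose by far the most. XBP1 at chr17:67745590-67750688 had 158, 178 and 194 scaled RPKM in late pregnancy against 411, 509 and 546 in lactation. The states were wide apart, and the log2 change was 1.49 ± 0.0642 (adjusted p = 7.4e-14). It held 8.84% of the summed level of the 41 genes in late pregnancy and 14.6% in lactation, where it came above CALR (10.4%) and P4HB (10.4%). On quantile-normalized RPKM these lactation shares were 16.5%, 9.55% and 9.50%. Gene counts do not separate the spliced form of XBP1 mRNA from the unspliced form. EIF2AK3 (PERK), the kinase that slows translation, had 7.79, 8.497 and 9.70 and then 13.9, 14.8 and 18.2, a log2 change of 0.83 ± 0.0623 (adjusted p = 4e-10). ATF6, a membrane-bound transcription factor freed by cleavage, rose by 0.60 ± 0.106 (from 6.26 ± 1.02 to 9.54 ± 0.972). ERN1 (IRE1), the kinase and nuclease that splices XBP1, was the lowest of the 4, with 1.19 to 2.16 and then 2.00 to 3.47. Its states overlapped, and the log2 change was 0.60 ± 0.146 (adjusted p = 0.0012).

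XBP1 and DERL3 also mark plasma cells, so the B and plasma cell list bears on them. MZB1, an ER chaperone of plasma and B cells, rose from 0.354 to 1.32 to a range of 3.15 to 6.65 scaled RPKM (log2 change 2.54), with at most 46 reads in a library. IGJ, the joining chain of secreted antibodies, rose by 0.91 and IRF4 by 1.24. CD79A, of the B cell receptor, fell by 1.27 and PIM2 by 0.47 on the log2 scale. PRDM1, a regulator of plasma cell fate, and POU2AF1 were not called (-0.0059 and 0.46), and TNFRSF17 had at most 6 reads in any library. The part of these cells in the level of XBP1 was not tested.

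The same few pools were often highest or lowest. In lactation the ad libitum pool 2 was highest in 19 of the 41 genes and the sub-maintenance pool 1 in 13. The maintenance pool 1 was lowest in 15 and the ad libitum pool 1 in 14. In late pregnancy the maintenance pool 2 was highest in 16 genes and the maintenance pool 3 lowest in 14. These pools belong to all 3 dam feeds, and leaving out any single library left 33 of the 37 genes called higher.

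The change of state was also computed within each dam feed. The median log2 change of the 37 genes was 0.83 within maintenance, 0.88 within sub-maintenance and 0.81 within ad libitum libraries, with 28, 30 and 33 genes called higher, where 23.4%, 22.9% and 23.7% of all genes tested were. Column names of the table carry a lane number, although the sample notes say that reads of 2 lanes were combined. Every sub-maintenance library has lane 8 in the name, and every ad libitum library but late pregnancy pool 3 has lane 7. Lane and dam feed subsets are therefore not separate checks. Within libraries with lane 7 in the name the median was 0.72 with 30 genes higher (26.2% of all genes), and within those with lane 8 it was 0.90 with 32 higher (27.7%). CALR, CANX and PDIA3 were not called within lane 7 or within maintenance, EDEM2 within lane 8, maintenance or sub-maintenance, ERN1 within maintenance or sub-maintenance, and ATF6 within sub-maintenance.

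No difference between dam feeds was called for these genes. Over the 9 late pregnancy libraries edgeR called 0% of 13747 genes by dam feed and 0 of the 41. At an unadjusted p under 0.05 there were 571 genes (4.15%) and 0 of the 41, and DESeq2 called 20 genes and 0 of the 41. The smallest p among the 41 was 0.094 for PDIA5. For the interaction of dam feed and state edgeR called 0% of 13345 genes and 0 of 40. Here 876 genes (6.56%) had an unadjusted p under 0.05, of the 40 only SDF2L1 did, and DESeq2 called 21 genes and 0 of the 40. In lactation SDF2L1 had a mean of 33.8 scaled RPKM in ad libitum, 42.7 in maintenance and 56.0 in sub-maintenance pools (n = 2 each), and in late pregnancy 19.0, 19.5 and 17.2 (n = 3 each). The adjusted p of its interaction was 0.71, so the difference did not pass the test. The ad libitum lactation pools have lane 7 in the name and the sub-maintenance ones lane 8, so feed and lane cannot be told apart there.

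Reads on introns, which include those of transcripts not yet spliced, were compared in the same way. Of the 37 genes 33 could be tested on introns, 23 were called higher and 1 lower, where 29% of all 10344 genes tested were called higher and 29% lower. The median log2 change of introns of the 33 was 0.71. HSPA5, SDF2L1, CALR, ERLEC1 and DERL3 were not in this test. Of the 36 genes of the 41 tested on both kinds of read, 25 were higher on both and 1 was lower on both. Of all 9801 genes tested on both, 2830 were called higher and 2873 lower on introns. The share of all genes called on both, or on 1 kind only, was not computed, so such counts are a description. The kit does not mark strand, so intron reads of overlapping genes cannot be told apart.

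The 5 genes with the largest rises on exons were also called higher on introns, as were 29% of all genes tested on introns. The share among all genes with rises as large on exons was not computed. The log2 change on introns was 2.49 ± 0.145 for ERO1L (2.51 on exons), 1.64 ± 0.162 for EDEM3 (1.80), 1.62 ± 0.141 for SYVN1 (1.67), 1.58 ± 0.0839 for DNAJC3 (1.53) and 1.45 ± 0.102 for XBP1 (1.49). DNAJC10 fell on introns by 1.65 ± 0.174 on the log2 scale, and its change on exons was -1.05. Introns of ERO1L had 9.20 to 15.8 CPM (intron reads relative to the library size) in late pregnancy and 59.6 to 110.0 in lactation, with no overlap.

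Some genes were called on 1 kind of read only. PDIA5, not called on exons, was higher on introns by 0.85 ± 0.124 (adjusted p = 2.5e-06), with 31.4 to 53.7 CPM in late pregnancy and 55.6 to 87.2 in lactation. Called on both, PDIA3 rose by 0.71 ± 0.131 on introns, TXNDC5 by 0.99 ± 0.0748 and CRELD2 by 1.71 ± 0.185. In the other direction 7 genes were called higher on exons and not on introns. These were OS9 (-0.05 on introns), CANX (0.03), ATF6 (-0.11), EDEM2 (-0.26), PDIA6 (0.21), ERP44 (0.20) and DNAJB9 (0.42 ± 0.408). The difference between exon and intron change was not tested.

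**Figure D5:**
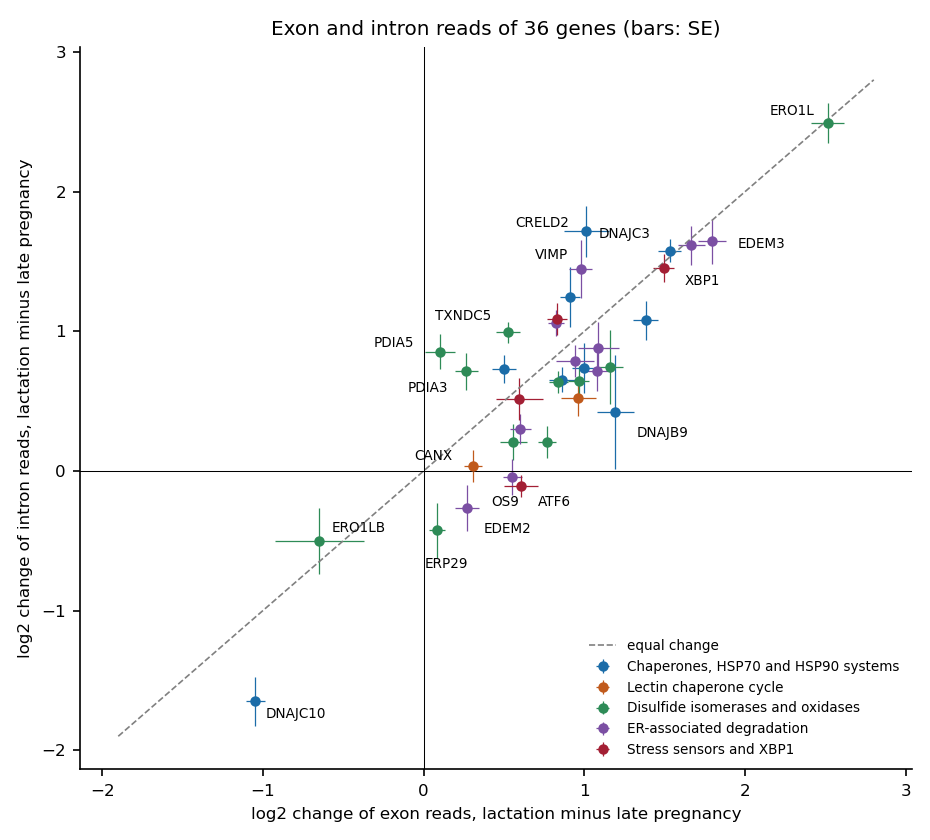
The log2 change from late pregnancy to lactation on exon reads (horizontal) and intron reads (vertical) of 36 genes is plotted with SE bars, coloured by role, with a dashed line for equal change. ERO1L at the upper right and DNAJC10 at the lower left lie far from 0 on both axes, and PDIA5 lies near 0 on exons and at 0.85 on introns. Both axes use TMM scaling, and with library size alone the exon changes except that of ERO1L were negative.

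Other genes of the same pathways were listed by function. Of 37 tested among the other ER folding factors, 23 were higher and 9 lower, with a median log2 change of 0.37. The shares of all genes tested were 33.1% higher and 35.2% lower. BCAP31, an ER membrane protein that sorts membrane cargo, rose most (1.23 ± 0.0726, from 102.7 ± 8.79 to 241 ± 30.0 scaled RPKM). CLGN, a calnexin relative known from testis, rose by 1.09 ± 0.207 and HSPA13, an HSP70 of the microsomes, by 1.02 ± 0.111. FKBP10, a prolyl isomerase of collagen folding, fell by 1.10 ± 0.121 on the log2 scale, TXNDC16 by 0.92 ± 0.292 and UGGT2, the relative of UGGT1, by 0.72 ± 0.245. TXNDC16 and UGGT2 were low, at 0.379 and 0.342 scaled RPKM in late pregnancy. By library size alone, 0 of the 37 were higher and all 37 lower.

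Among other ER-associated degradation factors 35 were tested, 23 were higher and 5 lower, against 33.1% and 35.2% of all genes tested. The median log2 change was 0.28. DNAJB2, a neuron-enriched cochaperone that hands clients to the proteasome, rose by 1.27 ± 0.0810. UBE2J1, the ubiquitin-conjugating enzyme of the ER membrane that works with SYVN1, rose by 1.08 ± 0.0537 (from 11.2 ± 0.698 to 23.8 ± 1.72 scaled RPKM) and the ligase RNF185 by 0.59 ± 0.0572. ATXN3, a deubiquitinase, fell by 0.69 ± 0.134 and TMUB1 by 0.34 ± 0.110 on the log2 scale. By library size alone, 0 of the 35 were higher and all 35 lower.

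The other sensors, effectors and targets of the stress response held the largest changes. Of 31 tested, 20 were higher and 4 lower, with a median log2 change of 0.68 and 11 higher by more than 2-fold. Of all genes tested 33.1% were higher, 35.2% lower and 9.13% higher by more than 2-fold. CHAC1, an enzyme that degrades glutathione and a target of ATF4, had 0.0665 to 0.426 scaled RPKM in late pregnancy and 5.81 to 22.9 in lactation (log2 change 6.17 ± 0.352). TRIB3, a pseudokinase induced with it, had 0.0366 to 0.466 and 4.93 to 22.2 (6.16 ± 0.421), and the transcription factor ATF3 1.44 to 3.09 and 61.6 to 124.6 (5.50 ± 0.152). The lactation level of CHAC1 and TRIB3 varied several-fold between pools, and no pool overlapped with late pregnancy. In late pregnancy CHAC1 had at most 18 reads in a library and TRIB3 at most 10, so the size of their changes is imprecise. BAX, a promoter of apoptosis, fell by 0.64 ± 0.144, NFYB, a subunit of a promoter-binding factor, by 0.58 ± 0.0743 and TRAF2, an adaptor that binds ERN1, by 0.43 ± 0.0821 on the log2 scale. By library size alone 4 of the 31 were higher and 26 lower.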

How the data were processed

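Pooled RNA of 15 mammary libraries was sequenced as paired reads. The authors mapped the reads in CLC Genomics Workbench and deposited, for 24691 features, counts of reads on exons and on whole genes, without normalization. The deposited RPKM are those counts relative to exon length and to all reads on genes, and the authors also gave RPKM after quantile normalization. The submitters' notes name the build Oar_v3.1 and the study's methods a later version; coordinates are those of the table. The fold changes and p-values of the authors' own comparison were not used.

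Counts were exon reads, or whole-gene reads where no transcript is annotated (5583 features). Genes passed filterByExpr by state, libraries were scaled by TMM, and edgeR 4.0.16 (R 4.3.3) compared lactation with late pregnancy by a quasi-likelihood F-test without covariates. P-values were adjusted by Benjamini-Hochberg over all genes tested and called under 0.05. Dam feed was tested over late pregnancy libraries, and its interaction with state over all 15. Intron reads are reads on the gene less those on exons. DESeq2 1.42.0, limma 3.58.1 on log2(quantile-normalized RPKM + 1), other scalings, filters and left-out libraries were alternatives. The fit was tested on simulated data. P-values measure the spread between pools, and depth was 7597938 to 25679416 reads on genes, without molecular identifiers.

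All 41 genes are named, and of each other pathway list the 3 called genes with the largest rise and the 3 with the largest fall, except for an item that is not reported here. Genes, lists and roles were chosen with earlier results of these data known. Sequences of the genes were not used here.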

Additional observations from a re-analysis of the deposited data

Results flagged for a closer look

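The lowest and highest library of each state were set against the rest for each of the 41 genes, 82 groups of values, of which chance alone sets apart about 1 in 20. In 3 groups, all of lactation, 1 library stood apart by Dixon's test. PDIA5 had 9.01 scaled RPKM in the sub-maintenance lactation pool 1, against 6.91 to 7.63 in the other lactation pools. EDEM2 had 11.3 in the sub-maintenance lactation pool 2, against 15.1 to 17.2 in the others. This pool lay below all late pregnancy pools (11.54 to 13.96), and the other lactation pools lay above them. EIF2AK3 had 18.2 in the ad libitum lactation pool 2, against 13.9 to 15.0. Leaving out these pools in turn changed no call of the 3 genes.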

How the results depend on the processing

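The exon counts and median of the 37 genes were recomputed under every alternative, the intron counts under 3, and the count of genes without overlap under none. With library size as the only scaling 1 gene was higher, 35 lower and 0 higher by more than 2-fold, the median log2 change was -1.05, and 10 genes were higher and 9 lower on introns. There the other folding, degradation and stress lists had 0, 0 and 4 genes higher and 37, 35 and 26 lower. Of all calls 48.4% were higher with TMM, 36.3% with upper quartile scaling, 31.9% with the library size taken without milk protein genes and 2.70% with library size only, where the median of all genes was -0.03, -0.18, -0.24 and -1.94. The genes that turned negative by library size alone were HSPA5 -0.72, HSP90B1 -1.41, HYOU1 -0.91, CALR -1.49, CANX -1.60, PDIA3 -1.65, PDIA4 -0.76, PDIA5 -1.81, PDIA6 -1.35, P4HB -0.94, DNAJB9 -0.72, DNAJB11 -0.53, DNAJC3 -0.38, SDF2L1 -0.66, CRELD2 -0.90, MANF -1.001, EDEM1 -0.82, EDEM2 -1.64, EDEM3 -0.11, SYVN1 -0.24, SEL1L -0.83, HERPUD1 -0.97, DERL1 -1.08, DERL2 -1.30, OS9 -1.36, ERLEC1 -1.01, UGGT1 -0.95, SIL1 -1.05, ERP29 -1.82, ERP44 -1.14, TXNDC5 -1.38, TXNDC11 -1.07, ERN1 -1.31, ATF6 -1.30, EIF2AK3 -1.08, XBP1 -0.42 and VIMP -0.93.

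The median log2 change of the 37 genes was 0.71 with upper quartile scaling (31 higher, 2 lower), 0.65 with milk protein genes left out (30 and 3), 0.63 with limma on quantile-normalized RPKM (29 and 2, the 2 being DNAJC10 and ERP29) and 0.72 within lane 7. With milk protein genes left out 6 genes were higher by more than 2-fold, and with limma 5. The sign also turned for PDIA3 with limma (-0.0162), for PDIA5 with upper quartile scaling (-0.0482), milk protein genes left out (-0.11), within lane 7 (-0.0371) and within maintenance (-0.13), and for ERP29 with upper quartile scaling (-0.0678), milk protein genes left out (-0.13), limma (-0.25), at least 10 reads in every library (-0.0016) and within lane 7 (-0.00997). The cause was not tested. Lactation shares on quantile-normalized RPKM were 9.55% (CALR), 9.50% (P4HB) and 16.5% (XBP1).

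The count of lower genes was 1, without ERO1LB, under DESeq2, dam feed as covariate, either lane, sub-maintenance alone and ad libitum alone, and a minimum of 10 reads per library also gave 1, since ERO1LB was not tested. Leaving out single libraries gave 33 higher, 1 to 2 lower, 10 to 14 above 2-fold and a median of 0.83 to 0.90. With pool number and dam feed as a block, 32 genes were higher and 1 lower, the median was 0.84, and PDIA3 (adjusted p = 0.051) and ERO1LB (0.13) were not called. The numbers are not known to pair ewes. Deviations of same-numbered pools correlated at -0.023 to 0.065 from the mean of their dam feed and state, and at -0.045 to 0.12 from the state mean. With 2 lactation pools per dam feed, the first kind of deviation is equal and opposite in the 2 by construction. These values therefore cannot tell whether pools share ewes. Of 719 single-gene values under alternatives, 642 kept direction and side of the threshold, 30 lost the call and 47 changed sign. RLE scaling, the filters and uniquely placed reads left 33 genes higher. Lane and dam feed subsets and the 4 LOC features were chosen after seeing the data. Low counts limit the precision for ERO1LB and DERL3.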
